A study of Mus musculus with 21 samples.

Results

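The liver secretes most of the proteins of blood plasma, and 9 of the genes that encode them are described here in testis RNA: Alb, Apoa1, Apoa2, Ttr, Kng1, Fgb, Fga, Ahsg and Ambp. They were taken by symbol from a table of 32643 genes, and they had been chosen from their levels in these same libraries, so their levels are a description and carry no test of their own. All 9 had a line in the table, and all 9 passed the filter on low counts. Alb (ENSMUSG00000029368) encodes albumin, the main carrier protein of plasma. Apoa1 (ENSMUSG00000032083) and Apoa2 (ENSMUSG00000005681) encode the major apolipoproteins of high-density lipoprotein, and Ttr (ENSMUSG00000061808) encodes transthyretin, a carrier of thyroxine and of retinol-binding protein. Fga (ENSMUSG00000028001) and Fgb (ENSMUSG00000033831) encode chains of fibrinogen, the clot protein, and Kng1 (ENSMUSG00000022875) encodes kininogen, the precursor of bradykinin. Ahsg (ENSMUSG00000022868) encodes fetuin-A, a protein that binds calcium phosphate, and Ambp (ENSMUSG00000028356) encodes a precursor that is cut into alpha-1-microglobulin and bikunin.

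RNA had been sequenced from whole testes of 21 mice at postnatal day 10. The animals were FXRα knockouts (FXRalpha-/-, KO) or wild type (WT), all of a mixed strain, 129sv and C57Bl6 in equal parts. The groups were KO given BPA (bisphenol A), KO given stigmasterol (a plant sterol) and KO given vehicle, with 3 animals each, and WT given BPA, WT given stigmasterol and WT given vehicle, with 4 animals each. The animals are named here by their T numbers. Doses, route and litters were not found in the labels.

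Hepatocytes make these transcripts at very high levels, under the control of transcription factors such as HNF1, HNF4 and the C/EBP family. FXRα, encoded by Nr1h4, is the nuclear receptor for bile acids, and in liver it acts on genes of bile acid and lipoprotein metabolism. The blood-testis barrier keeps plasma proteins out of the tubule lumen, and Sertoli cells make some carrier proteins of their own, such as transferrin and clusterin. In bulk RNA, a change in the number of cells of a type and a change in RNA per cell cannot be told apart.

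The promoters of 4 of the genes are shown because these genes move together in the libraries described next (Alb, Fga, Fgb) or vary little over all the others (Ahsg). Each line gives the 150 bases before the RefSeq start, on the strand of the gene, from RefSeq on build GRCm38.p6. Capitals mark matches to the HNF1 half-site GTTAAT or to the C/EBP palindrome TTGNNCAA on either strand.
Alb, chr5:90460720-90460869, plus strand: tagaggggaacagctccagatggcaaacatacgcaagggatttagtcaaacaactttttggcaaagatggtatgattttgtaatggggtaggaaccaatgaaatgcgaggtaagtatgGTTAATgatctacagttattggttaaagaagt
Fga, chr3:83026003-83026152, plus strand: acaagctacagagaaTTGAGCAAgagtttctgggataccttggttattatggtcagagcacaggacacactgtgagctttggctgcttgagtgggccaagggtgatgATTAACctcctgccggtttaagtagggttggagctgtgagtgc
Fgb, chr3:83049864-83050013, minus strand: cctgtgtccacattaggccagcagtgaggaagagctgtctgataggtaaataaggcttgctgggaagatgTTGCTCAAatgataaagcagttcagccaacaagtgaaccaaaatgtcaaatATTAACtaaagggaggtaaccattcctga
Ahsg, chr16:22891865-22892014, plus strand: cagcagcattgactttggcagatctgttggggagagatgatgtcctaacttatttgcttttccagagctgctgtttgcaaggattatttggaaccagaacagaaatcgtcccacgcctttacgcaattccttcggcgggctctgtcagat
The half-site began 32 bases before the start in Alb, 43 in Fga and 29 in Fgb, and the palindrome began 135 bases before the start in Fga and 80 in Fgb. The matches do not overlap each other. In windows of 250 bases before to 50 after the start, 7.1% of 32851 mouse promoters held the half-site and 6.4% the palindrome. Promoters of 7 of the 9 genes were searched, 8 promoters in all: 3 held the half-site (Alb, Fga and Fgb) and 3 the palindrome (Fga, Fgb and Ambp). A match is a run of letters, not a shown binding site.

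The libraries held 35459523 to 61498855 counts, so that 3 counts, taken as the floor of detection, equal 0.0484 to 0.0884 counts-per-million (CPM, scaled by TMM library sizes). Nr1h4 itself was at 0.172 to 0.492 CPM in the 9 KO libraries and 0.241 to 0.868 CPM in the 12 WT libraries, ranges that overlap, and the labels do not say which part of the gene is deleted. Markers of Sertoli, germ, Leydig and myoid cells, 19 genes, summed to 3760 CPM in T61, 4094 CPM in T75 and 3934 CPM in T25, the libraries that stand apart below, and to 3843 to 4542 CPM in the other 18.

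Plasma protein transcripts were abundant in 1 library, WT BPA animal T61, lower by about a factor of 10 in WT BPA animal T75, and lower again in KO BPA animal T25. Alb was at 18.9, 4.34 and 4.06 CPM in KO BPA animals T25, T83 and T117, at 0.862, 0.706 and 0.923 CPM in KO stigmasterol animals T10, T15 and T93, and at 7.67, 1.24 and 2.26 CPM in KO vehicle animals T1, T110 and T90. It was at 578, 58.6, 4.59 and 0.373 CPM in WT BPA animals T61, T75, T60 and T74, at 2.27, 1.502, 2.92 and 1.86 CPM in WT stigmasterol animals T118, T119, T78 and T98, and at 0.1503, 1.78, 1.94 and 1.14 CPM in WT vehicle animals T71, T66, T81 and T79. T61, T75 and T25 are the 3 libraries at 10 CPM of Alb or more, and all 3 are from BPA animals, but WT BPA animal T74 had the second-lowest level of all 21. Just inside that level was T25, at 18.9 CPM, and just outside it was T1, at 7.67 CPM.

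**Figure D1:**
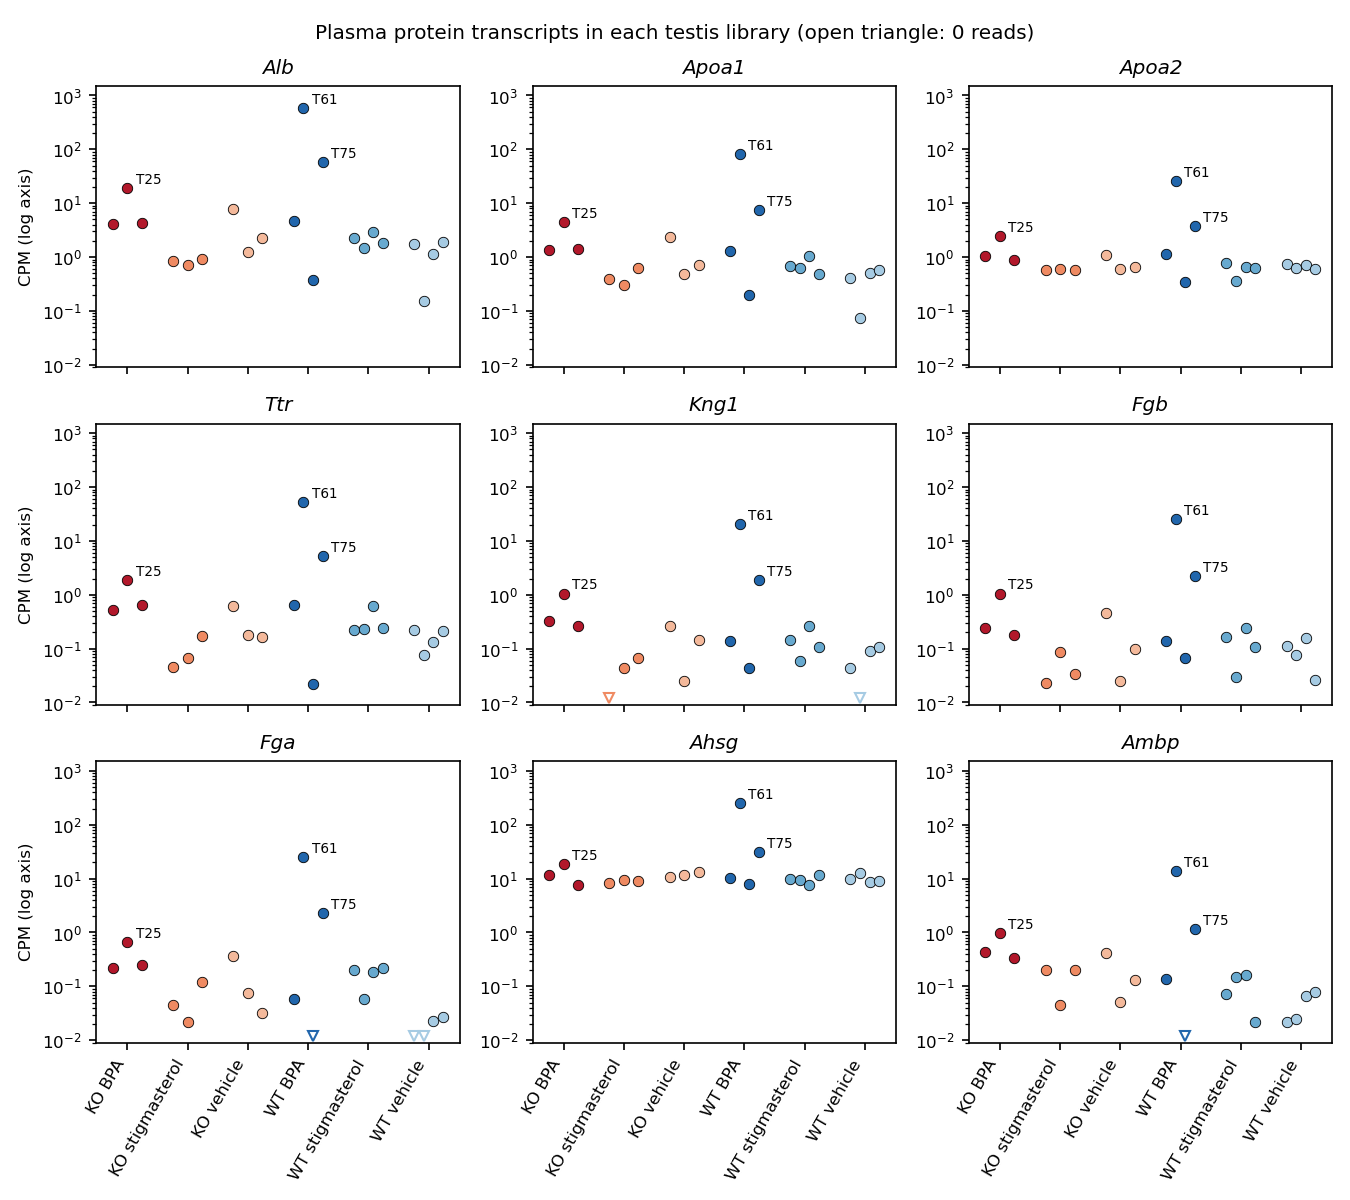
Level of each of the 9 genes in each of the 21 libraries (CPM, log axis; 1 point per animal, KO groups in red, WT groups in blue, open triangles for 0 reads). T61 is the highest point in every panel, T75 the second and T25 the third; Ahsg stays between 7.53 and 13.5 CPM in the other 18 libraries.

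The 9 genes together took 0.109% of all counts in T61 (49613 reads), 0.0115% in T75 (4786 reads) and 0.00513% in T25 (2194 reads). In the other 18 libraries they took 0.000889% to 0.00243%. Alb in T61 was 318 times its median over those 18 libraries (1.82 CPM). The apolipoprotein genes stood less far above theirs: Apoa1 was at 82.3 CPM in T61, 137 times a median of 0.602 CPM, and Apoa2 at 26.2 CPM, 41.2 times a median of 0.636 CPM. Ttr was at 53.3 CPM in T61, 247 times a median of 0.216 CPM. Fgb at 25.03 CPM, Fga at 24.9 CPM, Kng1 at 20.9 CPM and Ambp at 13.8 CPM were likewise highest in T61, and their medians over the 18 libraries were 0.103, 0.0588, 0.0979 and 0.104 CPM, at or near the floor.

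Per kilobase of gene length the order of levels differed between T61 and the other libraries. In T61 it ran Alb (283 CPM per kb), Ahsg (171), Apoa1 (101), Apoa2 (54.4), Ttr (43.7), Ambp (16.8), Fgb (15.2), Kng1 (12.6) and Fga (8.29). The median over the 18 others put Ahsg first at 6.502 CPM per kb, then Apoa2 at 1.32, Alb at 0.891 and Apoa1 at 0.736. The levels of Apoa2, Alb and Apoa1 per kb overlapped over those 18 libraries, whereas the lowest Ahsg level, 5.11 CPM per kb, was above the highest of each of the other 8 genes.

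Ahsg, fetuin-A, varied little over the 18 libraries in which the other transcripts were low, and was higher in T61, T75 and T25. It was at 18.7, 7.53 and 11.9 CPM in KO BPA animals T25, T83 and T117, at 8.22, 9.49 and 9.03 CPM in KO stigmasterol animals T10, T15 and T93, and at 10.9, 11.9 and 13.5 CPM in KO vehicle animals T1, T110 and T90. It was at 253, 31.6, 10.1 and 7.80 CPM in WT BPA animals T61, T75, T60 and T74, at 10.0, 9.40, 7.72 and 11.5 CPM in WT stigmasterol animals T118, T119, T78 and T98, and at 12.8, 9.68, 8.97 and 8.81 CPM in WT vehicle animals T71, T66, T81 and T79. Outside T61, T75 and T25 it spanned 1.797-fold on 319 to 840 reads, while Alb spanned 51.0-fold on 6 to 382 reads over the same 18 libraries. WT vehicle animal T71 shows the difference most plainly, with 510 reads of Ahsg and 6 of Alb. Alb made up 53.7% of the reads of the 9 genes in T61 (95% Wilson interval 53.2% to 54.1%), 51.3% in T75 (49.9% to 52.7%) and 37.7% in T25 (35.7% to 39.7%), against 1.09% to 31.7% in the others, where Ahsg took 45.3% to 92.6%. These intervals, and all others given for single libraries, cover counting error only.

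Apoa2 varied less than Alb over the 18 libraries, though its level was ordered much as that of Alb. It was at 2.45, 0.872 and 1.06 CPM in KO BPA animals T25, T83 and T117, at 0.567, 0.596 and 0.564 CPM in KO stigmasterol animals T10, T15 and T93, and at 1.10, 0.608 and 0.645 CPM in KO vehicle animals T1, T110 and T90. It was at 26.2, 3.72, 1.13 and 0.351 CPM in WT BPA animals T61, T75, T60 and T74, at 0.764, 0.353, 0.649 and 0.628 CPM in WT stigmasterol animals T118, T119, T78 and T98, and at 0.626, 0.746, 0.612 and 0.715 CPM in WT vehicle animals T71, T66, T81 and T79. Its 18 lower values spanned 3.23-fold. They rest on 12 to 58 reads each.

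Apoa1, the main protein of high-density lipoprotein, followed Alb more closely. It was at 4.52, 1.43 and 1.33 CPM in KO BPA animals T25, T83 and T117, at 0.386, 0.309 and 0.633 CPM in KO stigmasterol animals T10, T15 and T93, and at 2.33, 0.482 and 0.725 CPM in KO vehicle animals T1, T110 and T90. It was at 82.3, 7.44, 1.27 and 0.197 CPM in WT BPA animals T61, T75, T60 and T74, at 0.691, 0.619, 1.05 and 0.476 CPM in WT stigmasterol animals T118, T119, T78 and T98, and at 0.0752, 0.417, 0.586 and 0.514 CPM in WT vehicle animals T71, T66, T81 and T79. The highest of the 18 was T1 and the lowest T71, as for Alb. Across those 18 libraries, Spearman's rho between the level of Alb and that of each other gene was 0.909 for Apoa1, 0.889 for Ttr, 0.874 for Kng1, 0.812 for Apoa2, 0.71 for Fga, 0.703 for Fgb, 0.575 for Ambp and 0.108 for Ahsg. These are descriptions over libraries that share treatments and a scaling, and most of the values for Fga, Fgb, Kng1 and Ambp rest on fewer than 10 reads.

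The fibrinogen chains were near the floor outside the 3 libraries. Fga had 29, 11 and 9 reads in KO BPA animals T25, T83 and T117, 2, 1 and 7 reads in KO stigmasterol animals T10, T15 and T93, and 18, 3 and 2 reads in KO vehicle animals T1, T110 and T90. It had 1145, 96, 3 and 0 reads in WT BPA animals T61, T75, T60 and T74, 11, 2, 9 and 10 reads in WT stigmasterol animals T118, T119, T78 and T98, and 0, 0, 1 and 1 reads in WT vehicle animals T71, T66, T81 and T79. Outside T61 and T75 all counts were of 29 reads or fewer, and 3 libraries had 0 reads, WT BPA animal T74 and WT vehicle animals T66 and T71. Ttr was above 3 counts in 14 of the 18 libraries, Kng1 and Fgb in 11 each, Ambp in 10 and Fga in 7. Ttr, Kng1, Fgb and Ambp reached at most 0.648, 0.320, 0.462 and 0.443 CPM there.

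If 1 source of RNA had added reads in fixed proportions, the ratio of a gene's level between libraries would be the same for every gene. Between T75 and T61 the ratio was close to that. Alb in T75 was 0.101 of its level in T61 (interval 0.0972 to 0.106), Ttr 0.0971 (0.0846 to 0.112), Fga 0.0921 (0.0748 to 0.113), Kng1 0.0914, Apoa1 0.0904 and Fgb 0.0896. Ambp was lowest at 0.0828 (0.0618 to 0.111), and the ratio was highest for Apoa2 at 0.142 (0.1203 to 0.168) and Ahsg at 0.125 (0.118 to 0.133). Of the 8 genes other than Alb, 6 had an interval that met that of Alb and 2, Apoa2 and Ahsg, lay above it. With each gene's median over the 18 other libraries subtracted, Ahsg came to 0.0907 and Apoa2 to 0.121, against 0.0985 for Alb, and the 9 ratios spanned 1.59-fold, where they had spanned 1.72-fold before.

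In KO BPA animal T25 the proportions differed more. The T25 to T61 ratio was 0.0327 for Alb (0.0305 to 0.0350), 0.0347 for Ttr (0.0279 to 0.0433), 0.0420 for Fgb (0.0313 to 0.0563) and 0.0267 for Fga (0.0185 to 0.0385), which met each other. Apoa1 stood above Alb at 0.0550 (0.0477 to 0.0634), and so did Kng1 at 0.0503 (0.0375 to 0.0676), Ambp at 0.0694 (0.0509 to 0.0947), Ahsg at 0.0740 and Apoa2 at 0.0934. So 5 of the 8 genes had intervals above that of Alb, and the 9 ratios spanned 3.50-fold. Subtraction brought Ahsg to 0.0375, close to Alb at 0.0296, but left Apoa1 at 0.0480, Ambp at 0.0623 and Apoa2 at 0.0708, and a span of 2.91-fold. The subtracted ratios carry no interval, and Fga and Ambp rest on 29 and 42 reads in T25. The other KO BPA animals, T83 and T117, lay above the subtracted median for every gene but Ahsg. A subtraction of their levels instead was not made, so the remaining differences depend on that choice of baseline. T25 is 1 animal, and T61 and T75 are WT, so the genotype and the animal cannot be told apart.

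**Figure D2:**
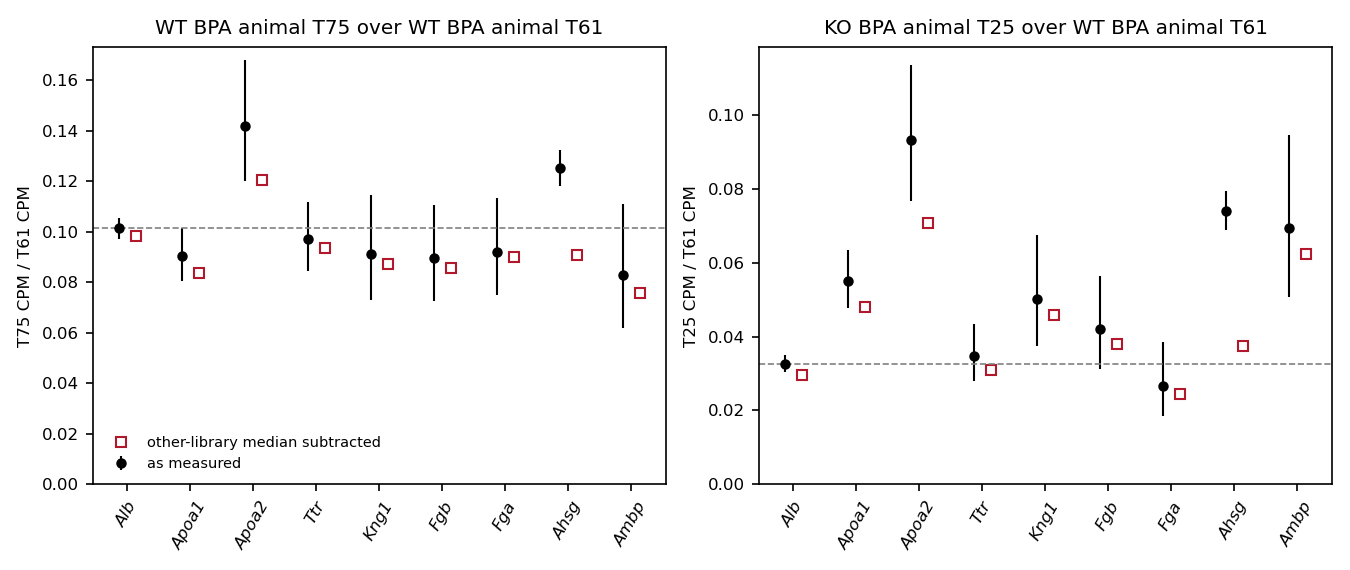
Level of each gene in T75 (left) and in T25 (right) divided by its level in T61, with 95% intervals from counting error (black points), and the same ratio after subtracting each gene's median over the other 18 libraries (open red squares); the dashed line is the ratio of Alb. Apoa2 and Ahsg stand above the line in T75, at 0.142 and 0.125, and the intervals of 5 genes lie above that of Alb in T25.

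The ratio to Alb within each library gives the same picture over more animals, read only where both genes had at least 10 reads. For every 100 reads of Alb there were 14.2 reads of Apoa1 in T61 (13.8 to 14.7), 12.7 in T75 (11.3 to 14.3) and 23.9 in T25 (20.5 to 28.0). In 16 other libraries there were 23.5 to 68.5, and 15 of those 16 intervals lay above the interval of T61. The 8 KO libraries among them ran 30.4 to 68.5 and the 8 WT libraries 23.5 to 45.1, which overlap. T1, the next library in order of Alb, had 30.4 (24.7 to 37.4).

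Most intervals of Ttr met that of T61 where 10 reads were asked for, but few libraries could be read at a higher minimum. There were 9.22 reads of Ttr per 100 of Alb in T61 (8.84 to 9.61), 8.84 in T75 (7.69 to 10.2), 9.79 in T25 (7.80 to 12.3) and 8.12 in T1 (5.64 to 11.7). In 10 other libraries, T1 included, the ratio was 7.14 to 20.8, and 7 of the 10 intervals met that of T61 while 3 lay above it. At a minimum of 30 reads 3 other libraries were left, of which 1 interval, that of T1, met that of T61 and 2 lay above it. Fga, Fgb and Kng1 could be read in 4, 3 and 4 other libraries, and in 2 of each their intervals met that of T61. The minimum on these genes' own reads, as on those of Ttr, leaves out low ratios where Alb is low. These ranges and counts are shaped by it. Ambp could be read in 4, all KO, and all 4 intervals lay above that of T61. The ratios were 5.50 to 22.2 reads per 100 of Alb, against 2.39 in T61. With at most 382 reads of Alb in the 18 libraries, 10 reads of Ambp already give a ratio above that of T61. The read minimum thus left no lower ratio to be seen, and libraries with fewer Ambp reads are not judged. Ahsg, at 43.7 reads per 100 of Alb in T61 and 54.0 in T75, was at 98.9 in T25, 143 in T1 and up to 2094 elsewhere, and its intervals and those of Apoa2 were above T61 in 17 of 17 libraries. Alb is the divisor here, so a gene that varies less than Alb has a higher ratio wherever Alb is lower.

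Other liver transcripts were higher in T61 as well. Of 58 other secreted plasma protein genes, 50 were higher in T61 than in each of the 18 libraries, 29 were so in T75 and 23 in T25. Of all 32643 genes 4.13% were higher than in each of the 18 libraries in T61, 5.66% in T75 and 4.71% in T25. The 58 genes summed to 526 CPM in T61, 113 CPM in T75 and 110 CPM in T25, against 65.2 to 117.3 CPM in the others, so that the sums of T75 and T25 lay within that range. Pzp, a protease inhibitor of plasma, was at 33.9 CPM in T61 and 0.727 to 7.20 CPM in the 18. Hp, haptoglobin, was at 26.5 CPM against 0.175 to 1.85 CPM, and Hpx, hemopexin, at 25.6 CPM against 0.913 to 2.87 CPM. Agt, angiotensinogen, at 28.3 CPM lay within the 14.8 to 54.6 CPM of the 18. Rbp4, the retinol carrier that binds transthyretin, at 31.1 CPM was above their 10.9 to 24.5 CPM by little.

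Some secreted liver products were missing from T61. The 5 genes Mup3, Mup20, Orm1, Hamp and A1bg had 0 reads in T61, which allows up to 0.0651 CPM by the 3-count floor. They were picked after their values were seen, as were the next genes. Mup3 and Mup20 encode major urinary proteins, which mouse liver makes after puberty, and Orm1 encodes an acute-phase protein. Apoc3, an inhibitor of lipoprotein lipase, had 28 reads or 0.608 CPM in T61, and Serpina3k 2 reads. Afp, the fetal counterpart of albumin, was at 23.0 CPM in T61, 10.6 CPM in T75 and 11.3 CPM in T25, against 8.04 to 13.7 CPM elsewhere. Of the secreted genes, 35 had at least 30 reads in T61 and at least 10 times their median. Their T75 to T61 ratio had a median of 0.124 and a range of 0.0388 to 0.282. Over the 9 genes described the median of that ratio was 0.0921. The 35 were kept for being high in T61, the divisor of the ratio, and no baseline was subtracted. Baseline reads weigh more in genes only about 10 times their median, so these medians are not like for like.

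Enzymes of hepatocytes were in T61 at lower levels. Of 31 enzymes and transporters, 27 were higher in T61 than in each of the 18 libraries, against 9 in T75 and 7 in T25, and they summed to 145 CPM in T61, 33.1 CPM in T75 and 30.8 CPM in T25, with 23.4 to 34.5 CPM in the others. Cyp2e1, a cytochrome P450, was at 16.5 CPM in T61 against 0.559 to 3.63 CPM in the 18, Pck1 of gluconeogenesis at 15.5 CPM against 0.586 to 4.30 CPM, and Fabp1, the liver fatty acid carrier, at 6.92 CPM against 0 to 0.261 CPM. Cps1 of the urea cycle was at 6.14 CPM against 0.416 to 1.02 CPM. Fah, at 19.2 CPM, and Cyp7a1, the first enzyme of bile acid synthesis and a gene that FXR represses in liver, at 0.543 CPM, lay within the ranges of the 18. Hepatocyte enzymes thus accompanied the plasma protein transcripts in T61; no liver sample was analysed here.

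Liver transcription factors and markers of other cells were less clear. Of all genes, 4.13% were higher than in each of the 18 libraries in T61, 5.66% in T75 and 4.71% in T25. Of 13 liver transcription factors 4 were so in T61, Nr1i2, Nr1i3, Prox1 and Creb3l3, with 2 in T75 and 2 in T25. Hnf4a was at 2.32 CPM in T61, 0.310 CPM in T75 and 0.0914 CPM in T25, but at 4.00 CPM in T1. Of 9 Kupffer and sinusoid markers 4 were higher in T61 than in all 18, with 2 in T75 and 2 in T25. Their summed level was 17.7 CPM in T61, 14.1 CPM in T75 and 14.8 CPM in T25, against 10.1 to 19.2 CPM. Clec4f, a lectin of Kupffer cells, was at 0.803 CPM in T61 (37 reads), 0.0954 CPM in T75 and 0.137 CPM in T25, and at most 0.0402 CPM in the others. Of 10 plasma proteins that testis cells also make, 3 were above all 18 in T61: Trf, transferrin, at 36.6 CPM against 1.23 to 3.795 CPM; C3 at 66.3 CPM against 2.78 to 11.8 CPM; and Apoe at 237 CPM against 98.5 to 170 CPM. Clu, clusterin, at 2991 CPM was within 2055 to 3672 CPM. Of the same 10 genes, 4 were above all 18 in T75 and 1 in T25.

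None of the markers of blood, fat, epididymis, pancreas or skeletal muscle was above all 18 libraries in T61, where 4.13% of all genes were. For lists of 6 to 12 genes a count of 0 is near that share. Of intestine markers 3 of 11 were above all 18 in T61, of kidney 1 of 9 and of choroid plexus, where Ttr is also made, 1 of 6. Of 11 pancreas markers 3 were above all 18 in T75 and 2 in T25. Red cell genes, 9 measured, summed to 30 CPM in T61, 42.7 CPM in T75 and 84.0 CPM in T25, inside the 22.7 to 162 CPM of the others. The 12 epididymis genes summed to 11.5 CPM in T61, 126 CPM in T75 and 7.997 CPM in T25, with 7.40 to 481 CPM elsewhere, and the 6 muscle genes to 4.71, 24.9 and 4.20 CPM, with 2.62 to 29.8 CPM elsewhere. The part of these other tissues in the levels of T75 was not tested.

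**Figure D3:**
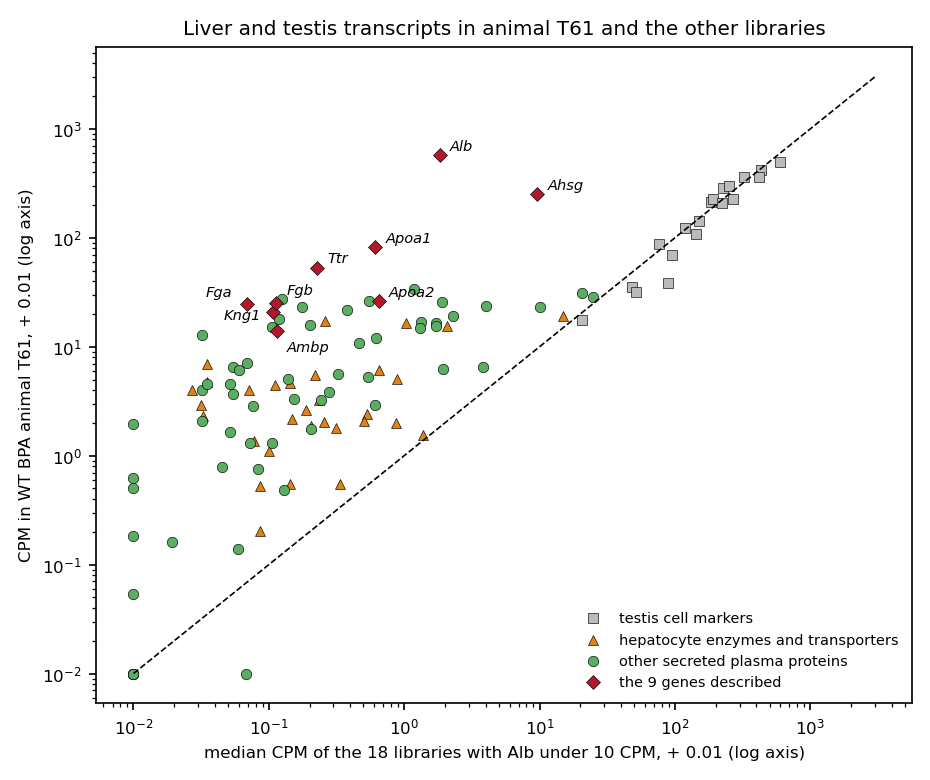
Level in WT BPA animal T61 against the median of the 18 libraries with Alb under 10 CPM (CPM + 0.01, both log axes; 1 point per gene; dashed line, equal levels). The 9 genes described, most other secreted plasma proteins and most hepatocyte enzymes lie above the line, and testis cell markers lie along it.

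Of the 10 genes whose pattern over all 21 libraries was most like the mean of the 9, 8 were on the lists of liver products, and Ces1c and Serpina1c were not. By Pearson's r of log2 CPM the first was Gc, the vitamin D binding protein, with 0.974 (0.895 without T61 and T75). The others, among them Serpina1b, Serpina1a, Ces1c, Fgg, Serpina1c, Azgp1, Fabp1 and Itih1, had r of 0.929 to 0.965 and, without those 2 libraries, 0.705 to 0.895. Fgg, the remaining fibrinogen chain, was at 23.0 CPM in T61, 2.03 CPM in T75 and 0.960 CPM in T25, close to the levels of Fga and Fgb. The Serpina1 genes are near-identical copies that can share reads, as can Kng1 and Kng2, so their separate values are uncertain.

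In the WT BPA group the means of these genes rest largely on T61 and T75, and the KO BPA group holds T25. The stigmasterol and vehicle groups hold none of the 3 libraries. BPA was compared with vehicle in WT animals, the comparison that the choice of genes also drew on. Alb averaged 160 ± 280 CPM in WT BPA animals and 1.25 ± 0.812 CPM in WT vehicle animals (SD, n = 4 each), an SD larger than the mean under BPA. By edgeR's quasi-likelihood test across 20254 genes the log2 difference of BPA over vehicle was 6.99 ± 1.48 for Alb (SE, adjusted p = 0.0609), 8.86 ± 1.89 for Fga (adjusted p = 0.0609) and 2.91 ± 0.75 for Ahsg (adjusted p = 0.0742). None of the 9 was called at an adjusted p of 0.05, and 0.0% of all genes were called in this comparison. All 9 had an unadjusted p under 0.05, as had 18.8% of all genes tested. DESeq2 called all 9, where it called 5.06% of all genes, with an adjusted p of 4.2e-05 for Alb, and limma-voom called 0. The authors' deposited table lists log2 values of 2.91 to 9.13 and adjusted p-values of 0.00 for all 9, in a comparison where it has 2.96% of its 32643 genes under 0.05.

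Without T61, T75 and T25 edgeR called 0 of the 9 genes for BPA in WT animals, and the log2 differences ran -0.18 to 1.18. The difference was then 0.99 ± 0.80 for Alb (edgeR adjusted p = 0.703), 0.88 ± 0.71 for Apoa1 (0.698), 1.06 ± 0.82 for Ttr (0.686), 0.13 ± 0.38 for Apoa2 (0.936) and -0.18 ± 0.21 for Ahsg (0.814). Those values rest on 2 BPA animals, T60 and T74, which themselves differed at 4.59 and 0.373 CPM of Alb. Leaving out T61 alone gave 4.07 ± 1.08 for Alb (edgeR adjusted p = 0.0853) and 0.71 ± 0.36 for Ahsg (0.284), and leaving out T75 alone gave 7.27 ± 1.53 for Alb (0.239). The edgeR count of the 9 genes called, 0 with all libraries, was 9 without T60, where 1.38% of all genes were called, and 7 without T74, where 0.0742% were. It was 8 without WT vehicle animal T79, where 6.53% of all genes were called, and 0 without any 1 of the other 18 libraries. In KO animals BPA gave log2 differences of 0.07 to 1.86. EdgeR called 0 of 9, beside 0.0148% of all genes, and 0 had an unadjusted p under 0.05, beside 4.31% of all genes.

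The remaining comparisons called none of the 9 by edgeR, DESeq2 or limma-voom. KO against WT under BPA gave log2 values of -4.16 to -2.43, with 9 at an unadjusted p under 0.05, beside 8.16% of all genes, and edgeR adjusted p of 0.249 to 0.561, beside 0.859% of all genes called. The interaction of BPA with genotype gave -7.59 to -2.64, with 9 at an unadjusted p under 0.05, beside 8.83% of all genes, and edgeR adjusted p of 0.536 to 0.563, beside 0.0148% called. Both contain T61 and T75 on the WT side and T25 on the KO side, and without these 3 libraries edgeR also called 0 of 9 in each. The direction of KO against WT under BPA then turned for all 9 genes, with log2 values of 0.12 to 2.83, and that of Alb was 0.76 ± 0.93 (edgeR adjusted p = 0.985). The interaction was then -0.80 to 0.40, with 4 genes above 0 and 5 below. By limma-voom with all libraries, KO against WT under BPA was -1.23 to 0.46, with 1 gene above 0, and the interaction was -2.77 to -1.07. KO against WT in vehicle gave 0.22 to 3.43 with 0 at an unadjusted p under 0.05, beside 20.9% of all genes. EdgeR called 2.92% of all genes in that comparison. The vehicle values rest in large part on KO animal T1, without which they were -0.48 to 1.85, with Alb at 0.51 ± 1.70, Ttr at 0.06 ± 1.95, and Apoa2 at -0.11 and Fgb at -0.48 below 0. KO against WT under stigmasterol gave -1.83 to 0.63 with 0 at an unadjusted p under 0.05, beside 21.3% of all genes, and edgeR called 7.21% of all genes. Stigmasterol against vehicle gave -0.16 to 3.56 in WT animals and -2.16 to -0.40 in KO animals. In either, 0 of 9 had an unadjusted p under 0.05, beside 8.26% and 3.85% of all genes. EdgeR called 0.00494% and 0.0% of all genes there. The interaction of stigmasterol with genotype gave -4.75 to -0.29, with 0 of 9 at an unadjusted p under 0.05, beside 9.16% of all genes. EdgeR called 0.00987% of all genes for it. Without T1, stigmasterol against vehicle in KO animals gave -1.19 to 0.66, with 2 genes above 0 and 7 below. The stigmasterol interaction without T1 gave -3.18 to 0.03, with 1 gene above 0 and 8 below. The comparisons with vehicle share their vehicle libraries, and those of KO with WT share theirs with both. All groups share 1 estimate of spread per gene, so T61, T75 and T25 also enter tests of groups that hold none of them. Without these 3 libraries, edgeR gave 6 of 9 genes an unadjusted p under 0.05 for the stigmasterol interaction. It gave 4 for KO against WT in vehicle, 3 for stigmasterol in KO, 1 for stigmasterol in WT and 1 for KO against WT under stigmasterol. None was called. The share of all genes at that threshold was not computed for this fit, so these counts are not read as a result about the 9 genes.

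Among the other secreted plasma protein genes, 38 of 58 passed the filter, and 2 were called by edgeR, both lower in KO testes. For KO against WT, 1 of the 38 was called in vehicle, 2 under BPA and 2 under stigmasterol. The shares of all genes called were 2.92%, 0.859% and 7.21%. Whether loss of FXRα or another difference between the KO and WT animals accounts for these calls was not tested. Apoc2, the activator of lipoprotein lipase and a gene that FXR induces in liver, was called lower in KO animals in vehicle (adjusted p = 0.0187), under BPA (0.0429) and under stigmasterol (0.0141). It had 0 to 5 reads or up to 0.114 CPM in the 9 KO libraries and 6 to 80 reads or 0.177 to 1.74 CPM in the 12 WT libraries. Mug1, a protease inhibitor of mouse plasma, was called lower in KO under BPA (0.0385) and under stigmasterol (0.0239), with 0 to 4 reads in the KO libraries and 6 to 22 in the WT libraries. With so few reads in KO animals no fold change is given. Both genes passed the filter on low counts only through the WT libraries, where they were higher. In the comparisons of treatment with vehicle none of the 38 was called by edgeR, though 31 had an unadjusted p under 0.05 for BPA in WT animals, where 18.8% of all genes had one, with a median log2 value of 2.60 where that of all genes was 0.01. Of the 24 hepatocyte enzymes that passed the filter none was called by edgeR in any of the 9 comparisons, and 17 had an unadjusted p under 0.05 for BPA in WT animals, beside the same 18.8%, with a median of 1.75.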

How the data were processed

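Total RNA from 21 testes was made into libraries with a TruSeq RNA kit, which does not mark strand (sense and antisense reads look alike), and sequenced on 1 flowcell, per the labels. TopHat2 2.0.10, Bowtie2 2.1.0, Bowtie, CASAVA 1.8.2 and the mm10 genome appear in the submitters' processing notes. The read counter and annotation are unnamed there. The deposited table holds raw read counts, which were the input of every test. The authors' normalized signal is each count divided by 1 size factor per library, per the file headers and the values, and a further deposited signal is per kb, from which gene lengths were taken. Deposited log2 fold changes and p-values are the authors' own and are rounded to 2 decimals.

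The tests used edgeR 4.0.16 (R 4.3.3) on the counts: TMM, filterByExpr (minimum count 10, minimum total 15), 1 mean for each of 6 groups, quasi-likelihood F tests, two-sided, adjusted by Benjamini-Hochberg over the 20254 genes kept. DESeq2 1.42.0, limma-voom (limma 3.58.1), other size factors, no filter, a robust fit, fits of only the groups compared and fits without single libraries were alternatives. SE is the size of the log2 fold change over the root of its F. CPM use TMM library sizes; log2 CPM for the pattern use a prior count of 2. Intervals are 95% Wilson intervals on counts, or on the share of 1 count in the sum of 2 for ratios between counts. Each animal counted as 1 replicate in the p-values.

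The 9 genes, the other 14 gene lists and the tests were chosen with earlier results of these data known. Besides the 9 genes, the rule for naming took from each list the up to 6 genes with the highest CPM in any library and up to 4 called genes per comparison, and the 10 genes most like the mean log2 CPM of the 9; only part of them is given, and 1 gene that the rule took is not reported here. No promoter of Ttr was used here.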

Additional observations from a re-analysis of the deposited data

Results flagged for a closer look

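In a group of 4 libraries, a library was marked when its distance to the nearest of the others took up nearly the whole range of the group. This was checked on CPM without a log in 27 groups of 4, the 9 genes in the 3 WT groups. The KO groups, with 3 animals each, were not checked. The rule is set to mark about 1 in 20 by chance. That rate does not apply here, because the 9 genes had been chosen from their levels in these same libraries. WT BPA animal T61 stood apart for all 9 genes: Alb at 577.9 CPM, Apoa1 at 82.29 CPM, Apoa2 at 26.18 CPM, Ttr at 53.27 CPM, Kng1 at 20.88 CPM, Fgb at 25.03 CPM, Fga at 24.85 CPM, Ahsg at 252.7 CPM and Ambp at 13.83 CPM. These 9 marks are 1 library seen through 9 genes. WT stigmasterol animal T78 stood apart for Ttr at 0.608 CPM, on 30 reads, with 8 to 12 reads in the other 3 animals of its group.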

How the results depend on the processing

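For BPA against vehicle in WT animals, the count of the 9 genes called was 0 by edgeR and 9 by DESeq2. Leaving out single libraries gave 0 to 9: it was 9 without WT BPA animal T60 (279 of all 20209 genes called), 7 without WT BPA animal T74 (15 of 20214), 8 without WT vehicle animal T79 (1321 of 20232) and 0 without any 1 of the other 18 libraries. For KO against WT under stigmasterol, a fit of only those 2 groups called 1 gene, Alb, at a log2 value of -1.36 (edgeR adjusted p = 0.0488), where the fit of all groups called 0; the fit of 2 groups called 1.69% of all genes. The cause was not tested. The other 245 such counts over the 9 comparisons stayed at 0, among them those under limma-voom, other size factors, no filter, a robust fit and the fit without T61, T75 and T25. In some fits of only the groups compared, the filter removed some of the 9 genes, which could not be called there. For BPA in WT animals these were Ttr, Kng1, Fgb, Fga and Ambp. The number of libraries at or above the Alb level was 3, and was 4 at a level of 5 CPM and 2 at 20 CPM. Ratios to Alb read at 30 reads rather than 10 had medians of 32.4 for Apoa1 and 14.04 for Ttr per 100 reads of Alb, against 32.9 and 12.8. No paired analysis was possible because the animals' numbers are not shared between groups. Outside the 3 libraries, Fga, Fgb, Kng1 and Ambp are limited by depth, with most values at fewer than 10 reads.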
